A study of Canis lupus familiaris with 7 samples.

Results

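*MAP1B* and 9 other genes of the neuronal cytoskeleton were examined in RNAseq of canine osteosarcoma (OSA) and non-malignant bone. The 10 genes were taken by symbol from the table of expression values, which lists 24580 genes: *MAP1B* and *MAP1A*, *MAP2* and *MAPT*, *STMN1*, *STMN2* and *STMN3*, *DPYSL3* and *GAP43*, and *TUBB3*. Of these, 9 had a row in the table, and *TUBB3* was not analysed here because no row bears that symbol. *MAP1B* was chosen for its difference between tumor and non-tumor samples in these data, so its values are given as a description without a test. The others were chosen by name for their function, with earlier results of these data known, and the question was whether they followed *MAP1B* or were high in single samples.

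The study compared grossly non-malignant bone from dogs (N1, N3, N8 and N9, 4 samples) with OSA tumors diagnosed by histopathology (T1, T3 and T10, 3 samples). All tissue was removed at amputation or after euthanasia, the bone pieces from beside the tumor, and the labels give no breed, age, sex or treatment. The paper calls the bone matched non-tumor tissue, but the labels do not state which tumor and bone samples came from the same dog. The p-values therefore ignore any pairing and measure the spread between these samples. In whole tissue pieces, fewer cells of a type and less RNA per cell cannot be told apart.

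Microtubules are polymers of tubulin that stiffen the axons and dendrites of neurons and serve as tracks for transport. Structural microtubule-associated proteins such as MAP1B, MAP1A, MAP2 and tau (encoded by *MAPT*) bind and stabilise them, whereas the stathmins bind free tubulin and favour disassembly. MAP1B is prominent in growing axons, and tau and MAP2 are the classical axonal and dendritic members. Several of these genes are also used outside the nervous system, and *STMN1* is known for its expression in dividing cells.

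Expression was given in FPKM, a count of fragments corrected for transcript length and library size, which allows levels to be compared between genes. The fragments that stand behind the same FPKM, read from the steps between the lowest values and expressed relative to N1, ran from 0.545 in N8 to 1.44 in T10. Across tested genes N1 was nearest to T1, with a Pearson correlation of log2 values of 0.917, against 0.55 to 0.812 for the other 20 pairs of samples and 0.572 to 0.67 for N1 with the other non-tumor samples. The summed FPKM of 9 osteoblast markers was 116 in N8, 358 in N9, 1278 in N3 and 1637 in N1, against 972 in T10, 1622 in T3 and 3745 in T1. The osteoblast genes *SPP1* and *IBSP* were present in all samples, but the non-tumor pieces differed widely. Skeletal muscle markers summed to 75683 in N8, 43691 in N9, 1192 in N3 and 71.4 in N1, and to between 4.95 and 8.10 in the tumors. Of these markers *CKM* was at 35044 FPKM in N8 but listed at 0 in N9, which can also be a failed estimate. Erythroid markers summed to between 7.11 and 4458 in non-tumor samples and between 3.67 and 77.2 in tumors, and granulocyte markers to between 452 and 54359 and between 58.1 and 1466. For endothelial markers the ranges were 90.9 to 366 and 29.1 to 119, for smooth muscle and pericyte markers 127 to 3574 and 59.5 to 302, and for Schwann cell markers 22.2 to 59.0 and 15.03 to 90.2. With calls as defined in the next paragraph, 8 of 10 skeletal muscle, 6 of 8 erythroid, 5 of 7 granulocyte, 3 of 8 endothelial, 1 of 9 smooth muscle and pericyte and 1 of 7 Schwann cell markers tested were lower in tumor, and 1 of 9 osteoblast markers was higher. Over all genes tested 3.58% were called lower and 3.28% higher. Markers with a tumor mean under 1 FPKM, such as *MB* (0.541) and *SLC4A1* (0.0540), passed the filter on low values through non-tumor samples.

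Groups were compared by limma on the log2(FPKM + 1) scale for genes whose mean reached 1 FPKM. A gene was called where its log2 fold change was at least 1 in either direction and its unadjusted p lay under 0.05, limits taken from the study's methods. Of 13507 genes tested, 6.86% were called, 3.28% higher and 3.58% lower in tumor, and no gene reached an adjusted p under 0.05 (0 genes by limma with Benjamini-Hochberg adjustment, 927 genes at an unadjusted p under 0.05). When all samples were scaled to equal FPKM sums, the higher share of the calls moved from 47.8% to 35.6%, and with quantile normalization it moved to 57.2%. With a sample left out it lay between 36.5% (without N3) and 70.3% (without T10). On this scale fold changes of low genes are understated.

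*MAP1B* (ENSCAFG00000007950, CanFam3.1 chromosome 2 from 55174106 to 55258400) reached 19.0 FPKM in T3, 16.9 in T10 and 13.4 in T1. In non-tumor bone it stood at 4.15 FPKM in N1, 2.93 in N9, 2.40 in N3 and 1.28 in N8. All 3 tumors lay above all 4 non-tumor samples, and the lowest tumor was at 3.23 times the highest non-tumor sample. Tumor samples averaged 16.4 ± 2.80 FPKM (SD, n = 3) and non-tumor bone 2.69 ± 1.19 FPKM (SD, n = 4), a ratio of 6.11 and a log2 fold change of 2.29. The coefficient of variation among the tumors was 17.0%, which the choice of the gene by this contrast favours. T1 was at 3.23 times N1, the sample nearest to it across genes.

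**Figure D1:**
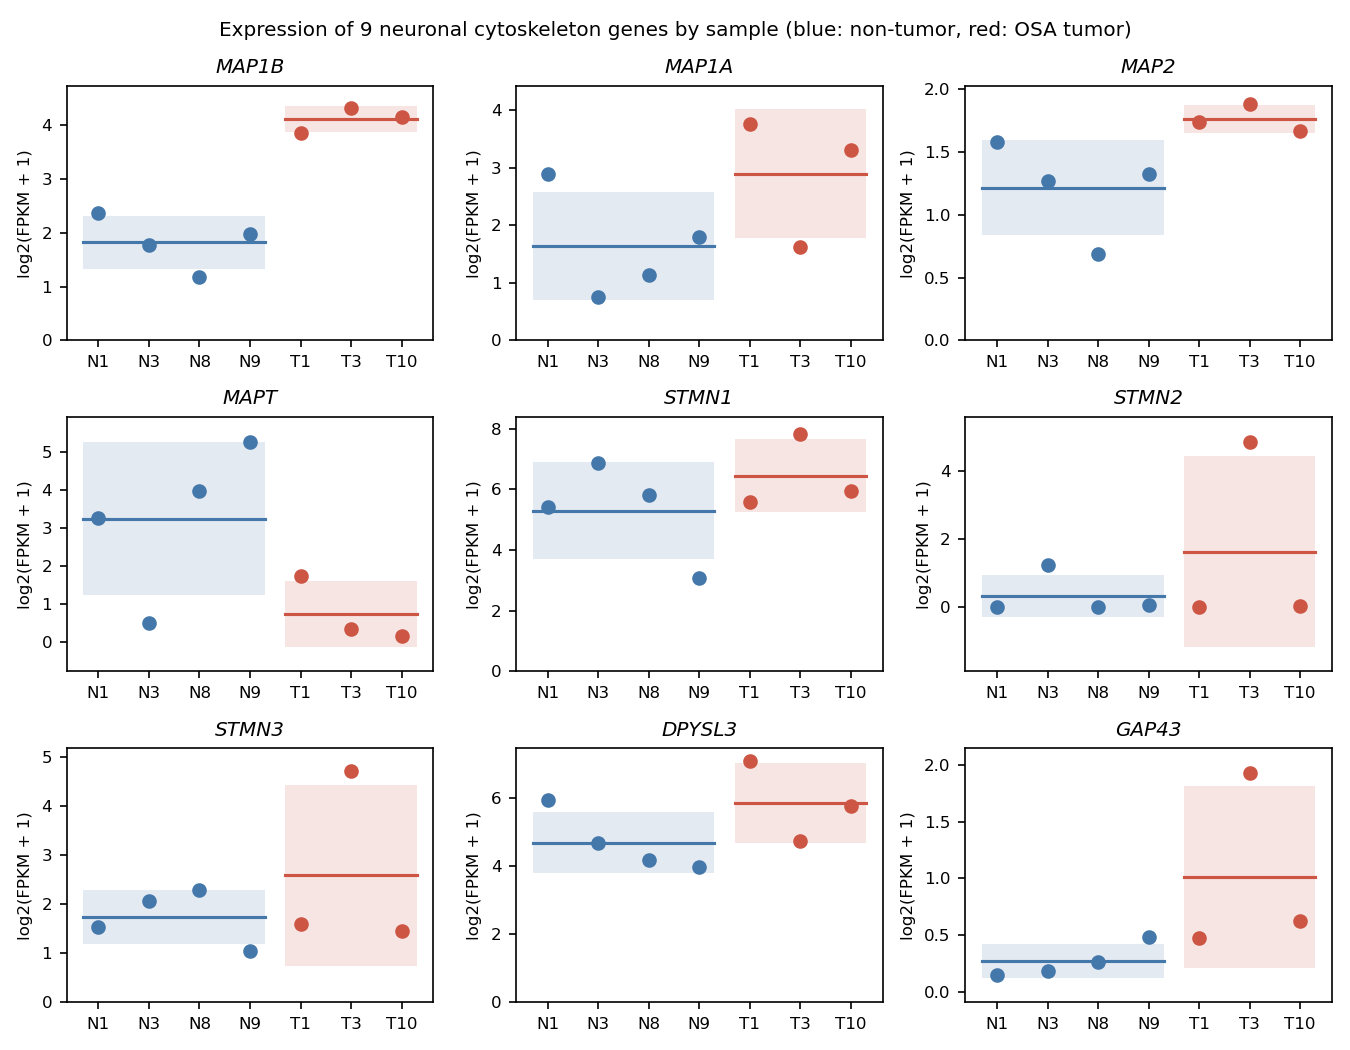
Level of each of the 9 genes as log2(FPKM + 1) (vertical axis) in the 7 samples (horizontal axis), with the group mean as a line and 1 SD as a band, blue for non-tumor and red for OSA tumor. *MAP1B* and *MAP2* are the genes whose groups do not overlap, while *STMN2*, at 28.4 FPKM in T3, is high in that sample alone.

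Of the other 9 genes, 7 passed the filter on low values and were tested. By the call rule 0 were higher and 1 was lower in tumor, where 3.28% and 3.58% of all genes tested were. Their log2 fold changes were positive in 6 and negative in 1, with a median of 1.15 against -0.02 over all genes tested, and the smallest adjusted p was 0.693 (limma, Benjamini-Hochberg over all genes tested). *STMN2*, which passed the filter through T3, counts among the 6, and without this gene the median was 1.00. The gene called lower, *MAPT*, passed the filter through the non-tumor samples. Without T3, 4 of the 7 were positive and the median was 0.47, and without N9 the median was 0.63. *MAP1B* was therefore not followed by a called rise in any of the 7, and the genes differed among themselves in which samples were high. Without N1 2 of the 7 were called, *MAP1A* and *DPYSL3*, both higher, in a fit that called 6.31% of all genes higher. Without T3 the calls were again *MAP1A* and *DPYSL3*, with 3.07% of all genes called higher.

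**Figure D2:**
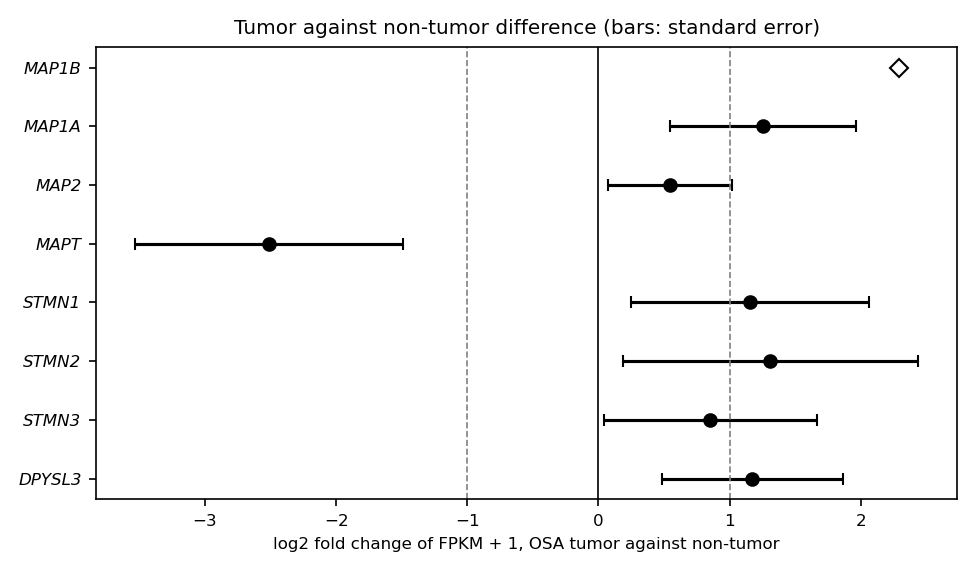
Log2 fold change of FPKM + 1 between OSA tumor and non-tumor samples (horizontal axis) for the 8 genes above the filter, with limma's standard error as bars and dashed lines at a fold change of 2. *MAP1B*, an open diamond without an error because it was chosen by this contrast, lies at 2.29, *MAPT* at -2.51 and the other 6 between 0.55 and 1.31.

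*MAP1A* (ENSCAFG00000032191, chromosome 30 from 10372640 to 10381376), the close relative of *MAP1B* that prevails in mature neurons, stood at 12.6 FPKM in T1, 8.91 in T10 and 2.09 in T3. Non-tumor bone had 6.44 FPKM in N1, 2.48 in N9, 1.20 in N8 and 0.679 in N3. T1 and T10 lay above all non-tumor samples, while T3 lay below N1 and N9. Its interval is shared by 2 listed genes. The log2 fold change was 1.25 (standard error [SE] 0.71, adjusted p = 0.701 from limma), and a two-sided exact permutation test gave p = 0.171, where 0.0571 is the smallest p that 4 against 3 samples allow. It was called without N1, at 1.67, and without T3, at 1.89. *DPYSL3*, which encodes a collapsin response mediator protein of growth cones, likewise had T1 and then T10 as its highest tumors. Its level was 135 FPKM in T1, 53.7 in T10 and 26.0 in T3, and among non-tumor samples 14.8 in N9, 17.1 in N8, 24.7 in N3 and 61.3 in N1. N1 lay above T3 and T10, so the groups overlapped. The log2 fold change of *DPYSL3* (ENSCAFG00000006607, chromosome 2 from 41687675 to 41750519) was 1.17 (SE 0.69, adjusted p = 0.706 from limma; exact permutation p = 0.229), and it was called at 1.59 without N1 and 1.73 without T3. In both genes T1 was the highest of the 7 samples, as it was for the summed osteoblast markers, whose part in these values was not tested.

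*MAP2* (ENSCAFG00000013740, chromosome 37 from 17533269 to 17611479) was low in every sample. Tumors stood at 2.68 FPKM in T3, 2.34 in T1 and 2.17 in T10, and non-tumor samples at 1.99 in N1, 1.5 in N9, 1.41 in N3 and 0.613 in N8. It shared with *MAP1B* that all tumors lay above all non-tumor samples, as 3.04% of all genes tested did (2.81% had all tumors below), and that the tumors were alike (coefficient of variation 11.0%). The margin was narrow, since the lowest tumor was at 1.09 times the highest non-tumor sample. The means were 2.40 ± 0.263 FPKM (SD, n = 3) and 1.38 ± 0.571 FPKM (SD, n = 4), with a log2 fold change of 0.55 (SE 0.47, adjusted p = 0.789 from limma; exact permutation p = 0.0571, the smallest possible). With any single sample left out the log2 fold change stayed between 0.37 and 0.67, under the limit for a call.

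*MAPT*, which encodes tau, took the opposite direction. Its highest values were 37.9 FPKM in N9, 14.7 in N8 and 8.57 in N1, whereas N3 had 0.399. Among tumors it stood at 2.33 FPKM in T1, 0.10 in T10 and 0.263 in T3. The groups overlapped because N3 lay below T1. With a mean of 0.897 FPKM in tumors and 15.4 in non-tumor samples, *MAPT* passed the filter through the non-tumor samples. *MAPT* (ENSCAFG00000013670), on chromosome 9 from 9571557 to 9674313, was the gene called lower, with a log2 fold change of -2.51 (SE 1.02, limma p = 0.0349 unadjusted and 0.693 adjusted; exact permutation p = 0.114). The call held without N3 or T1 and was lost without any other sample (log2 fold change -2.51 without N1, -2.27 without N8, -1.83 without N9, -2.31 without T3 and -2.21 without T10). N8 and N9, the samples with the highest *MAPT*, were also those with the highest sums of skeletal muscle markers, but N1 was above N3 in *MAPT* and below it in those markers. The part of muscle tissue in the *MAPT* values was not tested.

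The 3 stathmin genes had their highest value in T3, and in *STMN2* and *STMN3* the other tumors lay within the range of the non-tumor samples. *STMN2* (ENSCAFG00000008386, chromosome 29 from 27055752 to 27105745), a neuronal stathmin of growing axons, was at 28.4 FPKM in T3 and 1.37 in N3. It was at 0.0195 in T10 and 0.0430 in N9 and was listed at 0 in T1, N1 and N8, where 0 can also be a failed estimate. T3 held 99.9% of the tumor FPKM. With the relative depth counted in, N9 and T10 rested on the same number of fragments (ratio 1.003), N3 on 64.7 times and T3 on 1253 times that number. In 0.881% of all genes tested T3 held 99% or more of the tumor FPKM. Nothing is read from this share, since *STMN2* passed the filter through T3. The log2 fold change of *STMN2* was 1.31 (SE 1.13, adjusted p = 0.789 from limma) and turned to -0.31 without T3.

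*STMN3* (ENSCAFG00000013020), another neuronal stathmin, was at 25.1 FPKM in T3 and between 1.08 and 3.88 in the other 6 samples. The values of T1 (2.02) and T10 (1.74) lay within the range of the non-tumor samples, where N8 was at 3.88, N3 at 3.19, N1 at 1.89 and N9 at 1.08. T3 held 87.0% of the tumor FPKM. The interval of *STMN3* on chromosome 24, from 46668623 to 47275963, is shared by 27 listed genes. Its log2 fold change was 0.85 (SE 0.81, adjusted p = 0.806 from limma), and -0.21 without T3.

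*STMN1* (ENSCAFG00000029191, chromosome 2 from 74038887 to 74045567) was the most abundant of the 9 genes, with a mean of 78.9 FPKM over all samples. Its level was 223 FPKM in T3, 60.6 in T10 and 47.2 in T1, and 117 in N3, 55.3 in N8, 41.9 in N1 and 7.40 in N9. Only T3 exceeded the range of the non-tumor samples, and the log2 fold change of 1.15 (SE 0.91, adjusted p = 0.768 from limma; exact permutation p = 0.343) was not called with any sample left out. The summed FPKM of 12 cell cycle markers was lowest in N9 as well, at 84.4, but was 464 in T3, below 654 in N3 and 668 in T10. None of these 12 markers was called (0 higher and 0 lower by limma), and the part of dividing cells in the *STMN1* values was not tested.

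*GAP43* (ENSCAFG00000010848, chromosome 33 from 19668237 to 19770569), which encodes a growth cone membrane protein, did not pass the filter, with a mean of 0.657 FPKM. It was at 2.82 FPKM in T3, 0.537 in T10 and 0.392 in T1, against 0.396 in N9, 0.203 in N8, 0.138 in N3 and 0.110 in N1. T1 and N9 were nearly equal, so the groups overlapped by a small margin, and T3 held 75.2% of the tumor FPKM.

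**Figure D3:**
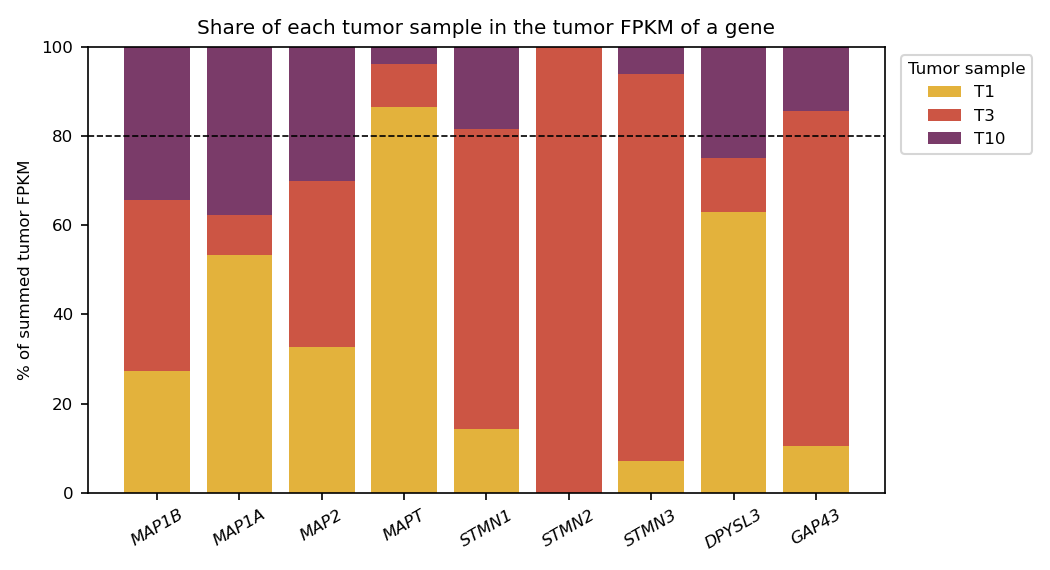
Share of T1, T3 and T10 in the summed tumor FPKM of each gene (vertical axis, in percent; dashed line at 80%). T3 makes up 99.9% of *STMN2*, 87.0% of *STMN3* and 75.2% of *GAP43*, and T1 makes up 86.5% of *MAPT* and 62.9% of *DPYSL3*, while *MAP1B* and *MAP2* are shared almost evenly.

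T3 was thus the highest tumor in 6 of the 9 genes (*MAP1B*, *MAP2*, the 3 stathmins and *GAP43*) and T1 in the other 3. Among the 8 tested genes T3 was the highest tumor in 5, *STMN2*, which passed the filter through T3, among them, and among all genes tested in 32.2%. At least 80% of the tumor FPKM lay in T3 for *STMN2* and *STMN3* and in T1 for *MAPT*, where all tumors were low, and in some single tumor for 9.21% of all genes tested. Nothing is read from that share, since the filter admitted *STMN2* because of T3. *MAP1B* and *MAP2* were spread over the tumors, *MAP1A* and *DPYSL3* were high in T1 and T10, and the neuronal stathmins were high in T3 alone.

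The 14 neuron markers gave no uniform picture in T3. Their summed FPKM was 72.9 in T3, 40.4 in T1 and 49.8 in T10, and between 30.1 in N3 and 89.8 in N9, where *UCHL1*, a ubiquitin hydrolase, made up most of the sum at 80.01 FPKM. In T3 *UCHL1* was at 13.6 FPKM, its lowest value, against at least 15.4 in the other samples. *SYT1*, picked out after its values were seen, was at 0.0317 FPKM in T3 and 4.83 in T1. T3 was the highest of the 7 samples in 6 of the 14. Among the 8 that were tested it was highest in 4, *SNAP25*, which passed the filter through T3, among them, and in 17.5% of all genes tested. *ENO2*, the neuronal enolase, was at 22.1 FPKM in T3 and between 0.873 and 6.65 elsewhere, and *CHGA*, a secretory granule protein, at 14.2 FPKM in T3 and between 0.303 and 6.92 elsewhere. The synaptic gene *SNAP25*, picked out after its values were seen, was at 7.29 FPKM in T3, 0.810 in N3 and 0.136 in N1 and listed at 0 in the other 4 samples. By contrast 5 of the 14, the defining markers *ELAVL3*, *ELAVL4* and *SYP* among them, stayed under 1 FPKM in every sample, although *ELAVL4* was highest in T3 at 0.170. The neuronal nuclear marker *RBFOX3*, picked out after its values were seen, was at 1.013 FPKM in T3, 0.537 in N3 and at most 0.157 elsewhere. Of the 8 neuron markers tested, *ENO2* (log2 fold change 1.70) and *SCG3* (1.44, picked out after its values were seen) were called higher in tumor, as 3.28% of all genes tested were. *SCG3*, with a mean of 0.790 FPKM in non-tumor samples and 4.45 in tumors, passed the filter through the tumors. The call of *ENO2* was lost without N1, N8, N9, T3 (0.92) or T10, and that of *SCG3* without N3, N8, T1 or T10 (1.00). For *SCG3* T10 was the highest sample, at 7.81 FPKM, against 1.47 in T3.

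Schwann cell markers had their highest sum in T3, at 90.2 FPKM, against 59.0 in N3 and at most 43.7 in the other samples. Most of it came from *MAL*, a myelin gene also made by other cells, at 61.1 FPKM in T3 and between 2.41 and 23.8 elsewhere. *NGFR*, the low-affinity neurotrophin receptor, was at 14.0 FPKM in T3 and at most 4.65 elsewhere. *MBP*, which encodes a myelin protein, was by contrast at 10.3 FPKM in T3, below N8 (20.9), N3 (17.0) and N9 (14.6). The defining marker *SOX10* reached at most 0.422 FPKM in any sample and was at 0.0213 in T3, where *S100B* was listed at 0. The part of nerve tissue in the values of T3 was not tested.

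**Figure D4:**
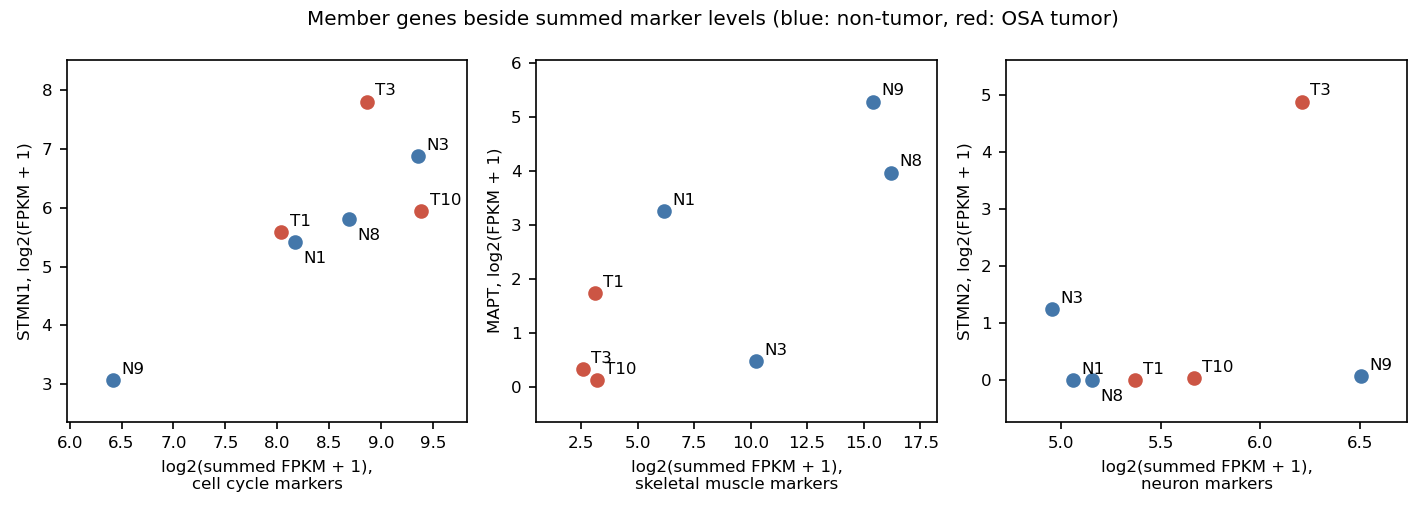
Level of *STMN1*, *MAPT* and *STMN2* (vertical axes, log2(FPKM + 1)) against the summed FPKM of cell cycle, skeletal muscle and neuron markers in the same sample (horizontal axes, log2 of the sum + 1), blue for non-tumor and red for OSA tumor. N9 is lowest for both *STMN1* and the cell cycle sum (84.4 FPKM), N8 and N9 are highest for both *MAPT* and the muscle sum, and T3 has the highest *STMN2* while N9 has the highest neuron sum (89.8 FPKM).

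The other genes of the neuronal cytoskeleton were taken as 6 lists with 102 symbols, of which 93 were in the table and 72 were tested. Of these 72 genes 3 were called (4.17%, against 6.86% of all genes tested), 1 higher and 2 lower, with a median log2 fold change of 0.07. Among 21 microtubule-binding proteins tested, 0 were called by limma, against 6.86% of all genes tested. Their most abundant genes were *MAP7D1*, between 17.5 and 244 FPKM, *PAFAH1B1*, a dynein regulator, between 39.8 and 93.5, and *MAP1LC3A*, an autophagosome protein, between 19.6 and 140. The neuronal genes *DCX* and *STMN4* of that list, picked out after their values were seen, reached at most 0.0515 and 0.157 FPKM. Of the genes under the filter, likewise picked out after their values were seen, *CRMP1*, a relative of *DPYSL3*, was at 4.87 FPKM in T3 and at most 0.287 elsewhere, so that T3 held 96.9% of the tumor FPKM. The neuronal kinesin gene *KIF5C* was at 3.801 FPKM in T3, 0.733 in T10 and 0.509 in T1 and at most 0.374 in non-tumor samples, without overlap of the groups.

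Among 11 tubulins tested, 2 were called lower and 0 higher, where 3.58% and 3.28% of all genes tested were. *TUBA8*, an alpha-tubulin known from muscle, stood at 185 FPKM in N9, 180 in N8, 11.0 in N3 and 4.80 in N1. In tumors it was between 2.03 FPKM in T3 and 7.40 in T10, a log2 fold change of -2.80 (SE 1.23, adjusted p = 0.693 from limma). *TUBA4A*, whose interval on chromosome 37 is shared by 11 listed genes, stood at 554 FPKM in N8, 252 in N9, 94.8 in N3 and 4.21 in N1. In tumors it was between 1.79 FPKM in T3 and 10.3 in T1, a log2 fold change of -3.94 (SE 1.38, adjusted p = 0.693 from limma). The call of *TUBA8* was lost without N8, N9 or any 1 tumor, and that of *TUBA4A* without N8, T3 or T10. In both, the high non-tumor samples N8 and N9 were those with high muscle markers and N1 lay within the range of the tumors. The part of muscle tissue was not tested. The most abundant tubulin, *TUBB*, was at 73.5 FPKM in N9 and between 256 and 391 in the other 6 samples. *TUBA1A*, whose interval on chromosome 34 is shared by 2 listed genes, was listed at 0 in all 7 samples, which can also be a failed estimate.

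Of the 11 collapsin response and growth cone genes tested, 1 was called higher, as 3.28% of all genes tested were, and 0 lower, and their median log2 fold change was 1.34. The called gene was *ENAH*, an actin regulator of growth cones, at 68.3 FPKM in T1, 48.2 in T10 and 22.2 in T3. Among non-tumor samples it was at 41.2 FPKM in N1, 12.4 in N9, 7.71 in N8 and 4.02 in N3, a log2 fold change of 1.77 (SE 0.74, adjusted p = 0.693 from limma). N1 lay above T3 in *ENAH*, and the call was lost without N3, N8, N9, T1 or T10. The actin-bundling gene *FSCN1* was at 180 FPKM in N1 and between 3.78 and 18.1 in the other non-tumor samples, while tumors ranged from 41.8 in T10 to 199 in T1. *NRP2*, a semaphorin receptor, was at 132 in T1, 79.0 in T10 and 7.28 in T3 and between 5.85 and 50.5 in non-tumor samples, and *CFL1*, an actin-severing protein, ranged from 44.9 to 398 over all samples. *DPYSL4*, whose interval is shared by 26 listed genes, was listed at 0 in all samples, which can also be a failed estimate. Without N1, 10 of the 72 genes of the 6 lists were called, in a fit that called 14.8% of all genes tested. The growth cone genes among them were *ENAH*, *FSCN1*, *BASP1*, *DBN1* and *MARCKSL1*.

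In the remaining lists 0 of 16 kinases and regulators, 0 of 12 axonal motors and 0 of 1 neuronal intermediate filament tested were called by limma, where 6.86% of all genes tested were. The regulators *FXR1* and *FXR2*, RNA-binding relatives of the fragile X protein, were highest in N9, at 689 and 72.2 FPKM, and *PPP2CA*, a phosphatase catalytic subunit, ranged from 44.8 to 194 FPKM. *CDK5R2* was listed at 0 throughout. The motor genes *KIF5B*, *DYNC1I2* and *DCTN1* were between 13.1 and 143 FPKM in all samples. *NES*, the intermediate filament gene nestin, was at 84.9 FPKM in N1 and 70.8 in T1 but 3.44 in T3, while *NEFM* reached 5.54 FPKM in N9 and at most 0.129 elsewhere and *PRPH* reached at most 2.02.

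The genes most like *MAP1B* over the 7 samples were found by the mean absolute difference of log2(FPKM + 1) after each gene was centred on its own mean. The nearest was *LPAR1*, a receptor for lysophosphatidic acid, with a difference of 0.241, at 4.68 to 8.71 FPKM in non-tumor samples and 18.8 to 49.2 in tumors. It was followed by *SYDE2* (0.289), *GRAMD3* (0.303), *NUAK1*, a protein kinase (0.315), and *C1QTNF2* (0.315). All 5 had tumors above every non-tumor sample, which the choice by likeness to *MAP1B* favours. Of the 7 other genes chosen by name and tested, *MAP1A* came nearest to *MAP1B*, at rank 1039 of the genes tested, with a difference of 0.77, followed by *MAP2* at rank 1688 and *DPYSL3* at rank 2125. Of the 72 genes of the 6 lists, 6 were nearer to *MAP1B* than *MAP1A* was, namely *MARK1* (0.599), *DYNC1I1* (0.609), *KIF3B* (0.644), *ENAH* (0.737), *TUBB6* (0.768) and *DYNC1I2* (0.772), with ranks from 293 to 1036. *STMN3* (rank 5143), *STMN1* (rank 7094) and *STMN2* (rank 8135) were farther away, and *MAPT* was at rank 13084 with a difference of 2.54.

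**Figure D5:**
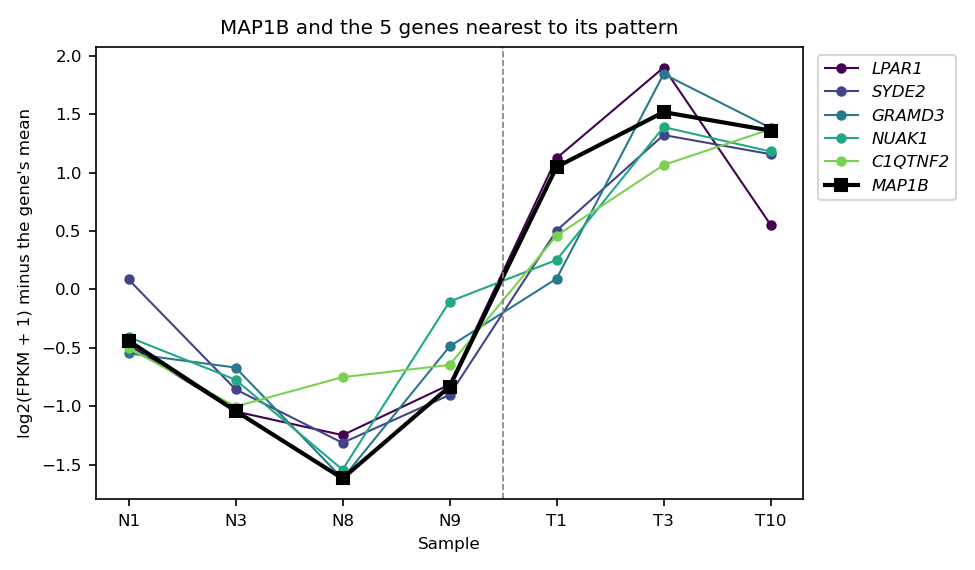
Log2(FPKM + 1) minus each gene's own mean (vertical axis) in the 7 samples (horizontal axis, non-tumor left and OSA tumor right of the dashed line) for *MAP1B* in black and the 5 genes nearest to it. All 6 lines lie higher in T1, T3 and T10 than in any non-tumor sample, and *LPAR1* differs from *MAP1B* by 0.24 on average.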

How the data were processed

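RNA from 4 non-tumor and 3 OSA tumor samples was sequenced as stranded paired-end libraries by Illumina HiSeq. After trimming (Trim Galore) and alignment (Tophat, CanFam3.1), the authors derived and deposited FPKM values per gene and sample from Cufflinks/Cuffdiff; tool versions and the normalization between libraries are not given in the sources used here. A further table holds the authors' comparison of the pooled groups (group FPKM, log2 fold changes, test statistics, p-values and q-values), from which only the other kind of column, the gene intervals, was used, with 1 added to each start. No counts were analysed. The paper gives a single approximate read number for the samples, so differences in depth between them are known only relative to N1.

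FPKM were put on the log2(FPKM + 1) scale. The filter (mean FPKM of 1 or more) kept 13507 genes and left out 11073, and groups were compared with limma 3.58.1 in R 4.3.3 (empirical Bayes with a mean-variance trend, tested on simulated data). The exact permutation tests used scipy 1.17.1 and Python 3.11.15, and figures matplotlib 3.10.9. The members, 6 pathway lists and 9 marker lists were chosen with earlier results of these data known. The rule for named genes took all members, the called genes and the 3 with the highest mean FPKM of each pathway list, the 3 highest of each marker list with any defining marker at 0 throughout, and the 5 genes nearest to *MAP1B*; markers of lists given as sums are not all printed, and genes outside the rule were picked out after their values were seen. Alternatives were other pseudocounts, filters and scalings, no trend, sample weights, the sample number as a block, and leaving out each sample.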

Additional observations from a re-analysis of the deposited data

Results flagged for a closer look

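In *STMN2* the non-tumor sample N3, at 1.37 FPKM, stood apart from the other non-tumor samples, which were at 0.0430 FPKM or listed at 0. On the log2(FPKM + 1) scale the gap to its neighbour was 0.951 of the group's whole range, above Dixon's 95% critical value for 4 samples. This was 1 of 9 genes examined in this way. The critical value assumes normally distributed values. Its rate of about 1 of 20 groups does not hold here, where the other non-tumor samples were at or near 0. T3, which carries the same number in its label, was the tumor with the high *STMN2*.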

How the results depend on the processing

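The log2 fold change of *MAP1B*, whose sign the choice of the gene fixes, was 2.71 with a pseudocount of 0.01 and between 2.08 and 2.47 with a sample left out. Called genes over all genes tested numbered 926, but 1857 with sample weights and 319 to 1997 with a sample left out (1997 without N1, 319 without N8, 603 without T3, 424 without T10). Of the 7 members other than *MAP1B*, 1 was called, against 0 without a filter on low values, 2 with sample weights (*MAP1A* and *MAPT*) and 0 to 2 with a sample left out. Pathway genes called numbered 3, but 9 with sample weights and 0 to 10 with a sample left out (10 without N1, 0 without N8). With a sample left out the log2 fold change of *STMN2* ranged from -0.31 to 2.13 and that of *STMN3* from -0.21 to 1.42, both negative without T3, their highest sample. Without the filter the calls of *MAPT*, *TUBA8* and *ENO2* were lost, as was that of *TUBA8* with quantile normalization and that of *SCG3* at equal FPKM sums. *KIF5C* was called higher without the filter, at 1.08, in a fit that called 2.34% of all genes higher. The cause of the changes in other genes and counts was not tested. The sample numbers 1 and 3 occur in both groups, but the labels do not say that they pair samples. Across genes the deviations from the group means correlated at 0.422 for N1 with T1 and 0.211 for N3 with T3. With the number as a fixed replicate block 231 genes, 0 of the 7 members and 0 pathway genes were called, and the log2 fold change was 2.02 for *MAP1B*, -0.84 for *MAPT*, -1.99 for *TUBA4A*, -0.86 for *TUBA8*, 1.46 for *ENAH*, 1.65 for *ENO2* and 0.90 for *SCG3*, of which the last 6 were no longer called; with it as a random replicate block 1062 genes, 1 member (*MAPT*) and 3 pathway genes were called, *TUBA4A*, *ENAH* and *TUBB6*, while *TUBA8* was not (-2.10). A value listed at 0 can be a matter of depth or a failed estimate, which was not tested. In N9 *CKM* was listed at 0, while *ACTA1* was at 11146 FPKM.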
